A study of Mus musculus with 20 samples.

Results

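Germinal centre B cells alternate between a dark zone, where they divide and mutate their receptor genes, and a light zone, where they take up antigen and are selected with T cell help. Because dark zone cells divide more often, a comparison of the zones mixes position with cell cycle. Cells placed in G1, the gap phase before DNA replication, were compared between zones. The members were the cells given G1 in the manual phase column of the authors' table of cells and named DZ or LZ in its supervised annotation, 385 of the 1367 cells of the series. Of these, 221 were dark zone cells and 164 light zone cells.

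The series holds eYFP+ B cells and plasma cells from the lymph node of C57BL/6 mice immunized with NP-KLH, a hapten on a carrier protein, in Sigma Adjuvant System. All cells were taken at day 15 of the primary response, 4 days after a tamoxifen gavage, so no untreated or unimmunized group was available. The eYFP label and the tamoxifen were shared by every cell, and the labels name neither the recombinase nor the reporter allele nor how many mice were used. Single cells were index-sorted into plates and profiled by FB5P-seq, a method that counts tagged 5′ ends of transcripts and also yields receptor chains. The 20 plates carried the sampleIDs C57BL/6F (10 plates) and C57BL/6M (10 plates). C57BL/6F gave 106 dark zone and 84 light zone cells, and C57BL/6M gave 115 and 80. The letters F and M also stand in a column named Sexe, and sex, animal and handling cannot be told apart between the sampleIDs.

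Counts were summed per plate and zone, which gave 1 dark zone and 1 light zone pool on each of 19 plates and 384 cells in all. The remaining member was 1 light zone cell on plate 6. Pools held 7 to 19 dark zone or 5 to 13 light zone cells and 163496 to 1149120 counts. Dark zone pools were deeper, with a median of 538530 counts against 353764 in light zone pools. Levels are TMM-scaled CPM, the count of a gene divided by the scaled size of its pool as in edgeR, and log2 fold changes are dark zone over light zone with their standard error. The test was edgeR's quasi-likelihood test with the plate as block, and a gene was called at a Benjamini-Hochberg adjusted p under 0.05. Nothing says that plates came from separate animals, so the p-values measure the spread between plates. The median cell had 41900 counts and 1141 genes in the dark zone and 35848 counts and 923.5 genes in the light zone. Over plates, neither counts per cell (adjusted p = 0.833, exact sign-flip permutation test) nor genes per cell (adjusted p = 0.401, the same permutation test) passed the threshold. The 1367 cell names were all different, so no plate shared a cell.

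How the annotation was made is not given in the sources used here. The authors' dark zone score minus their light zone score ran from -0.105 to 0.253 in dark zone members and from -0.615 to -0.0704 in light zone members, and only 23 dark zone and 17 light zone cells lay in the range that both shared. How the scores were made is not given either, and they may come from transcripts. Gene differences between the annotated zones are therefore read as descriptions of the 2 states and not as independent evidence for them. The sort gates and the fluorescence recorded at the sort were other readouts. Of the dark zone members 135 came from the dark zone gate, 57 from the light zone gate and 29 from the pre-plasma gate. Of the light zone members 107 came from the light zone gate, 40 from the dark zone gate, 12 from the pre-plasma gate and 5 from the plasma cell gate.

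Over 3374 genes tested, 41 were called between the annotated zones in G1 (1.22%), 27 higher in the dark zone (0.800%) and 14 lower (0.415%). Without an adjustment 243 genes had a p under 0.05. The plate ranges of the 2 zones overlapped for every gene tested. With no plate block 18 of the 41 genes were still called. The median log2 fold change of all genes tested was 0.36, and 0.12 when cells were thinned to 10000 counts. Cells with fewer counts were dropped there, which left 197 dark zone and 145 light zone cells, so depth and choice of cells changed together. That thinning left 1508 genes tested and moved the split to 20 higher and 16 lower, and RLE scaling moved it to 22 higher and 18 lower. Leaving out 1 plate at a time gave 15 to 28 higher and 11 to 14 lower, with 15 higher without plate 7, 16 without plate 9 and 15 without plate 20. Of the 41 genes 24 were called in all 19 of these fits. For genes detected in few light zone pools the fitted fold exceeds the ratio of the mean levels, so the levels are given first.

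Light zone genes came first among the lower genes. Cd83 encodes a surface molecule that stabilizes MHC class II and CD86 and marks the light zone. In dark zone pools Cd83 ran from 242 to 2713 CPM with a median of 1183, and in light zone pools from 2256 to 7310.4 CPM with a median of 4157. Dark zone pools were the lower on all 19 plates, and only the highest of them reached the range of the light zone. The change was -1.87 ± 0.17 log2 (adjusted p = 2.55e-08, edgeR). Its counts were found in 58.4% of dark zone and 86.6% of light zone cells, and in 57.4% and 87.6% of cells after thinning.

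Fcer2a, which encodes the low-affinity IgE receptor CD23, also fell on each of the 19 plates. In dark zone pools Fcer2a ran from 0 to 1386 CPM with a median of 443, and in light zone pools from 398 to 2368 CPM with a median of 1209.5, a change of -1.46 ± 0.34 log2 (adjusted p = 0.0228, edgeR). Lrmp, an endoplasmic reticulum membrane protein of lymphocytes, was the remaining gene that was lower on all 19 plates, at a median of 356 against 753 CPM. Il4i1 encodes a secreted L-amino acid oxidase that is induced by interleukin 4. In dark zone pools Il4i1 ran from 0 to 805 CPM with a median of 148, and in light zone pools from 29.6 to 2887 CPM with a median of 745, and it changed by -2.32 ± 0.57 log2 with the dark zone lower on 16 of 19 plates (adjusted p = 0.0309, edgeR). Nfkbia, the NF-kappa-B inhibitor that is itself a target of NF-kappa-B, had a median of 263 against 751 CPM and changed by -2.04 ± 0.52 log2, lower on 16 plates (adjusted p = 0.0466, edgeR). With 1 plate left out, Il4i1 was called in 11 of 19 fits, Nfkbia in 5 and Lrmp in 18.

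In the list of light zone and activation genes, 4 of 15 tested members fell and none rose. Over all genes tested 0.415% were called lower. The list median was -1.46 log2 beside 0.36 over all genes. With no filter on low counts 4 of 24 members fell, with a median of -1.33 log2 beside 0.33. Summed over the list, the level was higher in the light zone on all 19 plates, with a median of 3324 CPM in the dark zone and 9129 CPM in the light zone. Cd83, a member of this list, alone had medians of 1183 and 4157 CPM, a large part of that difference. Members that did not pass the test included Cd40, the receptor for T cell help, at -3.18 ± 1.09 log2 (median 13.2 against 223 CPM) and the costimulatory ligand gene Cd86 at -0.95 ± 0.50 log2 (median 314 against 577 CPM). The early activation gene Cd69 stood at -1.88 ± 1.29 log2. Myc, which marks selected light zone cells, was too sparse to test, with counts in 12 of 221 dark zone and 8 of 164 light zone cells. Ccnd2, a G1 cyclin, was found in 6 and 4 cells.

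In the list of NF-kappa-B components and targets 2 of 11 tested members fell, Nfkbia and Cd83, beside 0.415% of all genes called lower. Both also stand in the light zone list, and the list median was 0.05 log2 beside 0.36 over all genes. That median depended on the setting, at -0.16 log2 over all 20 members with no filter on low counts, -1.03 over 4 after thinning and -0.97 over 12 between the sort gates. The summed level of the 20 members had a median of 2719 CPM in dark and 6443 CPM in light zone pools and was lower in the dark zone on all 19 plates. Cd83 alone had medians of 1183 and 4157 CPM in these pools, so the difference of the sums was largely that of Cd83. The subunit genes Nfkb1 at 0.99 ± 1.34 and Rela at 1.37 ± 1.04 log2 did not pass the test.

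In the antigen presentation pathway 5 members fell. MHC class II molecules are pairs of an alpha and a beta chain that carry peptides to CD4 T cells, the invariant chain Cd74 escorts them, and H2-DM exchanges the peptide. For the alpha chain gene H2-Aa, in dark zone pools the level ran from 3893 to 9686 CPM with a median of 6955, and in light zone pools from 5845 to 12888 CPM with a median of 9183. The 2 zones overlapped over most of their range, and within plates the light zone was higher on 17 of 19. The change was -0.44 ± 0.07 log2 (adjusted p = 0.000717, edgeR).

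The beta chain gene H2-Ab1 had a median of 10756 against 13939 CPM (-0.39 ± 0.07 log2). The second beta chain gene H2-Eb1 had 4924 against 5883 CPM (-0.49 ± 0.09 log2), and both were lower on 17 plates. H2-DMb2, a beta chain of the peptide exchange factor, had 2599 against 3683 CPM and fell on 18 plates (-0.59 ± 0.10 log2, adjusted p = 0.000717, edgeR). H2-DMb2 has a close copy in H2-DMb1, and how reads shared by both were counted is not stated. Of the 5, Cd74 changed least, at -0.26 ± 0.05 log2 and lower on 14 plates. All 12 members of this list were tested, 5 fell and none rose, beside 0.415% of all genes called lower. The list median was -0.42 log2 beside 0.36 over all genes. Ciita, the transactivator of the class II genes, stood at -0.78 ± 0.75 log2 and did not pass the test, with a median of 223 against 241 CPM. No member of the 11 tested genes of MHC class I and the immunoproteasome was called, and that list had a median of -0.23 log2.

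**Figure D1:**
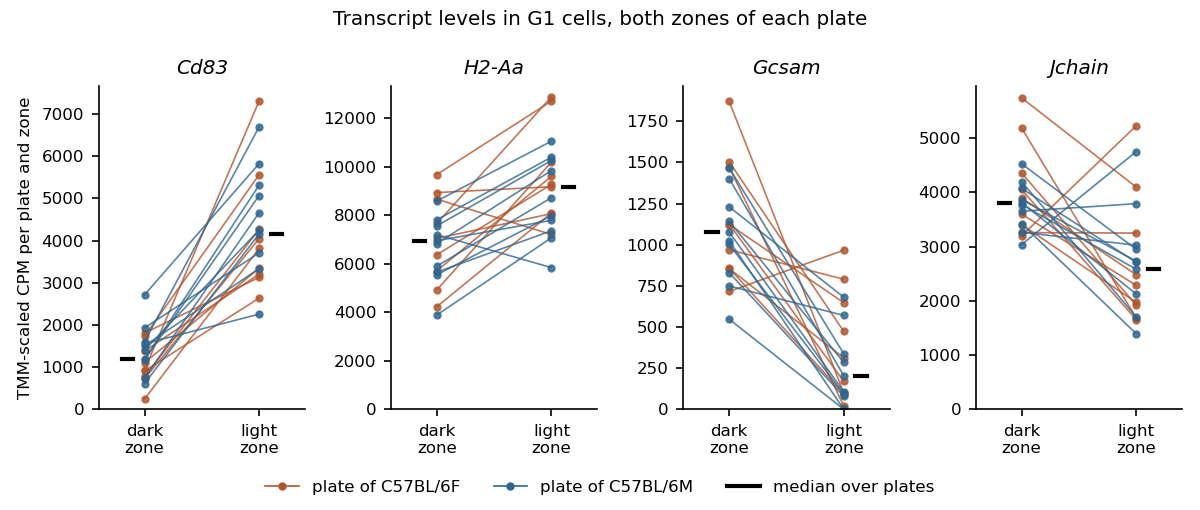
TMM-scaled CPM (vertical axes) of 4 genes in G1 cells of the dark and light zone; each line joins the pools of 1 of 19 plates, coloured by sampleID, and black bars are medians over plates. Cd83 rises from the dark to the light zone on all 19 plates and H2-Aa on 17, while Gcsam falls on 18 and Jchain on 16.

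Class II genes are controlled through shared promoter elements, one of which, the Y box, is bound by the factor NF-Y. The promoter windows of the 3 class II genes of lowest p that had one are shown because these genes fell in the dark zone. The windows are RefSeq sequences of GRCm38.p6, 250 bases before to 50 after the gene's start, written 5′ to 3′ on the gene's strand, with the Y box core GATTGG on either strand in capitals. H2-Aa lies at chr17:34287774-34288073 on the minus strand, H2-DMb2 at chr17:34144999-34145298 and H2-Eb1 at chr17:34305617-34305916, both on the plus strand.
H2-Aa: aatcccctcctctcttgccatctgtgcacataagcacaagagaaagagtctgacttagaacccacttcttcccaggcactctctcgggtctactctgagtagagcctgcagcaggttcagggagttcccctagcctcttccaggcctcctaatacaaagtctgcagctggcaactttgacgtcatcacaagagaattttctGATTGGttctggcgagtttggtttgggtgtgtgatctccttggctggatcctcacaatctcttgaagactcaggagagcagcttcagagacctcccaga
H2-DMb2: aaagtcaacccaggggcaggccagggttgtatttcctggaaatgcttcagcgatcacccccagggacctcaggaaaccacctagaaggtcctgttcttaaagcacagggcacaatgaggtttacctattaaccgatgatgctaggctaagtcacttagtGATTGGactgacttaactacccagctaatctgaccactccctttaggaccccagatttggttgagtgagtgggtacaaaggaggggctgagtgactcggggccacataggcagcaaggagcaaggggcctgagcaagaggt
H2-Eb1: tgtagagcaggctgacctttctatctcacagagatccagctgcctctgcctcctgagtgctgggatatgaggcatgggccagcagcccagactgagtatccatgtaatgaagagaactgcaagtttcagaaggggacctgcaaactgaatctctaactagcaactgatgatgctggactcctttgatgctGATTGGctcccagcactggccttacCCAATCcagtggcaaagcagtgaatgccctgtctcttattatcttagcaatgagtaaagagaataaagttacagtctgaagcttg
The core begins 49 bases before the start in H2-Aa and 91 bases before it in H2-DMb2. H2-Eb1 holds it 60 bases before the start and, on the other strand, 35 bases before it. This search was added after the class II genes had been seen among the calls. Of the 10 called genes of lowest p in each direction, 11 in all had a window. The core was in a window of 5 of these, the 3 class II genes above, Cd53 and Fcer2a. A gene was counted if any of its windows held the core, while the share over all 32851 single windows was 16.1%.

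An NF-kappa-B-like motif, GGGNN directly followed by TTTCC on either strand, was in 1.63% of all windows and in 0 of those 11. The window of Nfkbia, a called gene outside those 11, is shown because it holds the motif, so this match was fixed by the choice. Nfkbia is a textbook NF-kappa-B target and was lower in the dark zone. The window lies at chr12:55492598-55492897 on the minus strand, with the motif in capitals, 29 bases before the start and on the opposite strand.
Nfkbia: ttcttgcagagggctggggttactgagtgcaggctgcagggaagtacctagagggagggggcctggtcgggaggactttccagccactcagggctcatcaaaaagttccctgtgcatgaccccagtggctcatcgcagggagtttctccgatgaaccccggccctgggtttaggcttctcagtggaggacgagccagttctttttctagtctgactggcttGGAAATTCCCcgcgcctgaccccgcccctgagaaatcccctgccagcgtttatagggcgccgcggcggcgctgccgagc
Both motifs hold GG at an end, so that matches of the 2 can overlap, and a match only describes the window.

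Cd52, Cd53, Pfn1 and Malat1 were also lower in the dark zone. Cd52, a small glycosylphosphatidylinositol-anchored glycoprotein, had a median of 2062 against 3700.5 CPM and fell on 18 of 19 plates (-0.67 ± 0.10 log2, adjusted p = 0.000222, edgeR). The tetraspanin gene Cd53 had 1581 against 2322 CPM and also fell on 18 plates (-0.75 ± 0.14 log2). Pfn1, which encodes the actin-binding protein profilin, changed by -0.24 ± 0.06 log2, and the nuclear long non-coding RNA Malat1 by -0.38 ± 0.09 log2. These 2 were called in 9 and 17 of 19 fits with 1 plate left out, and neither was called after thinning (adjusted p = 0.0903 and 0.0693, edgeR), nor Pfn1 with no filter on low counts (adjusted p = 0.0567, edgeR). Adjusted p was above the threshold for the B cell gene Ms4a1, which encodes CD20 (-0.27 ± 0.09 log2), the cytokine receptor chain Il2rg (-0.79 ± 0.22 log2, adjusted p = 0.0901, edgeR) and the inhibitory receptor Cd72 (-2.19 ± 0.62 log2, adjusted p = 0.0901, edgeR).

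Among the genes that rose in the dark zone, Gcsam, a germinal centre adaptor that restrains B cell motility, is a marker of this state. In dark zone pools Gcsam ran from 547 to 1870.3 CPM with a median of 1077, and in light zone pools from 0 to 967 CPM with a median of 204. Light zone pools at 0 on 2 plates were the lowest, and the upper light zone pools reached into the dark zone range. Gcsam was higher on 18 of 19 plates, by 2.59 ± 0.50 log2 (adjusted p = 0.0035, edgeR). Its counts were found in 67.4% of dark zone and 32.3% of light zone cells.

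Hmces and Neil1, which act in DNA repair, were also called higher in the dark zone. Hmces, which shields abasic sites in single-stranded DNA, had a median of 1049 against 330.2 CPM (1.89 ± 0.46 log2, adjusted p = 0.0295, edgeR). Neil1, a base excision repair glycosylase, had 1157 against 243 CPM (1.76 ± 0.36 log2). Both were higher on 17 plates. Hmces was called in 14 and Neil1 in all of the 19 fits with 1 plate left out.

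Polh, the error-prone polymerase of hypermutation, had counts in 4 dark zone and 2 light zone cells. In the dark zone list 3 of 8 tested members rose and none fell, with a median of 1.04 log2 beside 0.36 over all genes. Over all genes tested 0.800% were called higher. With no filter on low counts 3 of 13 members rose, with a median of 1.03 log2 beside 0.33. Gcsam and Pafah1b3 were among the members that rose. Pafah1b3, a catalytic subunit of platelet-activating factor acetylhydrolase, had a median of 709.8 against 132 CPM and was higher on 18 plates (3.30 ± 0.68 log2). Transcripts of Cxcr4, the dark zone homing receptor, were found in 25 of 221 dark zone and 5 of 164 light zone cells and were too sparse for the test. Rgs13, a regulator of chemokine receptor signalling, was at -0.36 ± 0.28 log2. Foxo1, a dark zone transcription factor, stood at 3.13 ± 1.60 log2 with an adjusted p of 0.694 in edgeR.

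Several other genes rose on each of the 19 plates. Rgcc, a regulator of cell cycle kinases, had a median of 546 against 3.37 CPM and was found in 36.2% of dark zone and 7.93% of light zone cells. Mbd2, a reader of methylated DNA, had 258 against 0 CPM and was at 0 in 11 of the 19 light zone pools. Bptf, a subunit of a chromatin remodeller, had 386 against 111 CPM and was called in 3 of 19 fits with 1 plate left out. The actin regulator Gmfg had 500.1 against 173 CPM, and Cd79b, a signalling chain of the B cell receptor, had 4482 against 3547 CPM (0.31 ± 0.07 log2). That value of Cd79b was below the median of 0.36 log2 over all genes tested. Gmfg was not called with no filter on low counts (adjusted p = 0.0659, edgeR), and Cd79b neither with RLE size factors, the scaling of DESeq2 in place of TMM (adjusted p = 0.0570), nor after thinning (adjusted p = 0.246). Anxa2, a membrane-binding annexin, rose on 17 plates with a median of 1333 against 557 CPM (1.28 ± 0.21 log2), and adenosine deaminase, Ada, rose on 18 with 884 against 354 CPM and was not called after thinning (adjusted p = 0.0978, edgeR). The chromatin protein gene Hmgn2 had 4111 against 2597 CPM (0.75 ± 0.14 log2). Hmgn2 has processed pseudogenes that could share its reads.

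Jchain and Mzb1 were called higher in the dark zone. Jchain, the joining chain of IgM and IgA, had a median of 3810.3 against 2581 CPM and rose on 16 of 19 plates (0.59 ± 0.13 log2, adjusted p = 0.0137, edgeR; 0.0543 with RLE size factors). Mzb1, an endoplasmic reticulum protein of immunoglobulin assembly, had 2786 against 1498 CPM and rose on 17 (0.89 ± 0.14 log2). Of 7 tested members of the plasma cell list these 2 rose and none fell, beside 0.800% of all genes called higher. The list median was 0.13 log2 beside 0.36 over all genes. The chaperone gene Hsp90b1 of that list stood the other way, at -3.17 ± 0.92 log2 (adjusted p = 0.103, edgeR). Defining plasma cell genes were near 0 in both zones. Prdm1 was found in 1 of 221 dark zone and 2 of 164 light zone cells, Sdc1 in 3 and 1, and Fkbp11 in 2 and 5.

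No immunoglobulin constant region was called among 8 tested. Of 20 oxidative phosphorylation genes 1 rose, the succinate dehydrogenase subunit Sdhb, at a median of 1821 against 1121 CPM (0.68 ± 0.17 log2, adjusted p = 0.0401, edgeR) and called in 7 of 19 fits with 1 plate left out. Neither the 10 glycolysis genes nor the 7 genes of the mitochondrial genome gave a call.

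**Figure D2:**
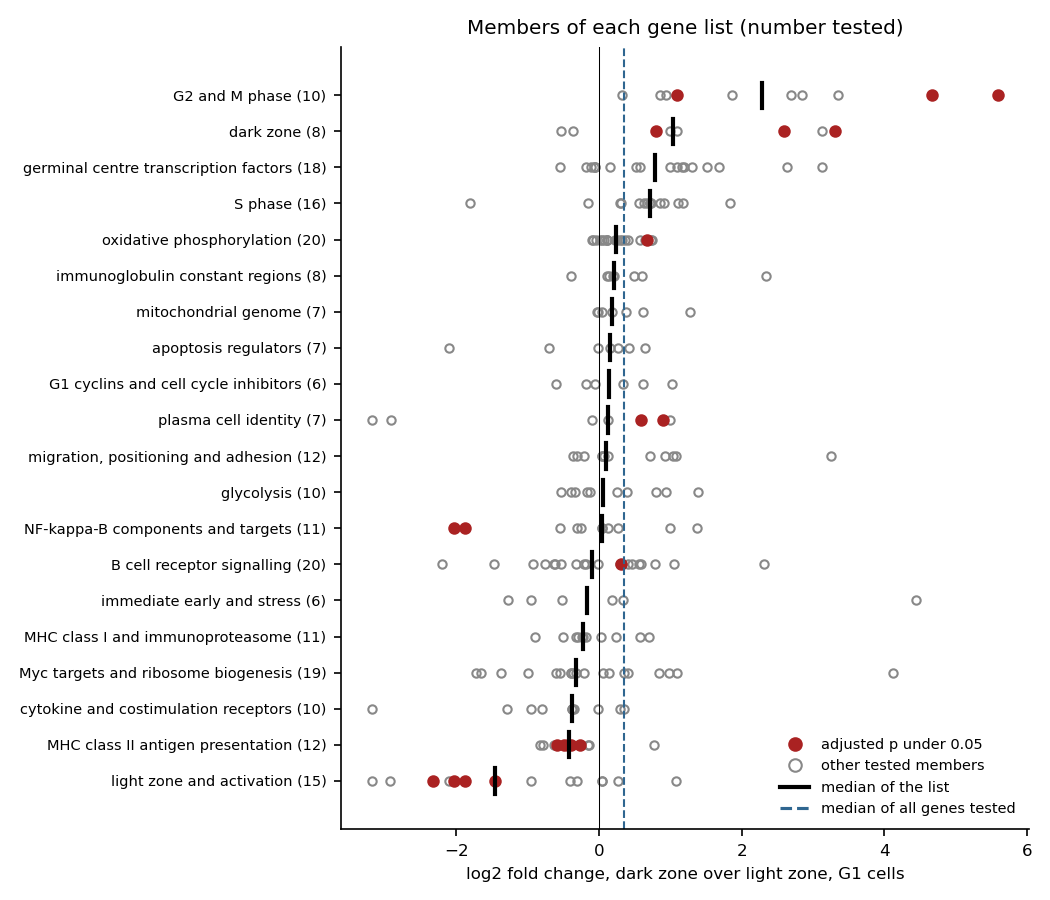
Log2 fold change of each tested member of 20 gene lists in G1 cells (horizontal axis, dark zone over light zone), with genes of adjusted p under 0.05 as filled red points, list medians as black bars and the median of all genes tested, 0.36, as a dashed line. The light zone and class II lists have called members only to the left of 0, and the dark zone and G2 and M phase lists only to the right.

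Germinal centre transcription factors gave no call. Of 18 tested members 12 had positive values, and the median was 0.79 log2. Over all genes tested the median was itself positive, at 0.36 log2. The B lineage factor Pax5 was at 1.20 ± 1.14, the coactivator Pou2af1 at 1.52 ± 0.66 and Irf8 at -0.12 ± 0.26 log2. Bcl6, the repressor that defines the germinal centre, was found in 10.4% of dark zone and 9.76% of light zone cells. B cell receptor signalling gave 1 call of 20, Cd79b. No gene was called in the lists of migration and positioning (12 tested), cytokine and costimulation receptors (10), Myc targets and ribosome biogenesis (19), apoptosis regulators (7), immediate early and stress genes (6) and G1 cyclins and inhibitors (6). The cyclin gene Ccnd3 of the last list was at 1.02 ± 0.47 log2. S1pr2, the receptor that confines cells to the germinal centre, was at -0.20 ± 0.70 log2.

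Selecting G1 did not make the zones equal in every cell cycle readout. In the manual phase column 48.9% of dark zone and 59.0% of light zone cells of the series were in G1. S phase held 21.9% and 25.5%, and G2M 29.2% and 15.5%. The table also holds a phase called from scores. Among the members, the scores gave G2M to 38 of 221 dark zone cells (17.2%, exact Clopper-Pearson 95% interval 12.5% to 22.8%, counting error only) and to 11 of 164 light zone cells (6.71%, 3.4% to 11.7%). They gave S to 27 and 25 cells. Per plate the share of members called G2M by the scores ran from 0 to 50 percent with a median of 14.3 in dark zone cells and from 0 to 18.2 percent with a median of 0 in light zone cells. It was higher in the dark zone on 15 plates and in the light zone on 1, by 11.2 ± 11.7 percentage points (SD, n = 19, two-sided exact sign-flip permutation test, p = 0.000641, adjusted p = 0.00577 over 9 quality measures). In the same permutation test the G2M score itself did not pass (difference 0.0320 ± 0.0547, SD, n = 19, adjusted p = 0.0947). Nor did the share of cells given another phase by the scores (8.20 percentage points, adjusted p = 0.148) or the S score (adjusted p = 0.833).

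Genes of G2 and mitosis were read beside this share, and a link between them was not tested. Of 25 list members 10 passed the filter on low counts, and 3 of these were called, all higher, beside 0.800% of all genes. With no filter, the 25 had a median of 1.10 log2 beside 0.33 over all genes, and 2 were called. Hmgb2 encodes a chromatin protein of dividing cells. In dark zone pools Hmgb2 ran from 302 to 1723 CPM with a median of 1036, and in light zone pools from 113 to 995 CPM with a median of 495, and it was higher on 18 plates (1.09 ± 0.26 log2, adjusted p = 0.0286, edgeR). Cks1b, a cofactor of cyclin-dependent kinases, had a median of 376 against 3.63 CPM (4.66 ± 1.04 log2), and cyclin B2, Ccnb2, had 299 against 0 CPM (5.59 ± 1.25 log2). Both medians of the light zone were near 0, and means over plates were 377 ± 252 against 127 ± 222 CPM for Cks1b and 371 ± 287 against 79.5 ± 146 CPM for Ccnb2 (SD, n = 19). Cdca8, a subunit of the chromosomal passenger complex, and Cdkn3, a phosphatase of cyclin-dependent kinases, were also called higher in the dark zone. Hmgb2 was not called with no filter (adjusted p = 0.0625, edgeR) and Cdkn3 not with RLE size factors (adjusted p = 0.0539). With 1 plate left out, Hmgb2 was called in 14 of 19 fits, Cdca8 and Cdkn3 in 5 each, and Cks1b and Ccnb2 in all. Hmgb2 and Cks1b have processed pseudogenes that could share their reads.

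The proliferation marker Mki67 at 2.69 ± 1.24 and the microtubule regulator Stmn1 at 2.84 ± 1.07 log2 did not pass the test. No S phase gene was called among 16 tested, with a median of 0.72 log2 beside 0.36 over all genes. That median was near 0 with no plate block and on the C57BL/6F plates alone, and -0.51 over 17 between the sort gates. Pcna, the sliding clamp of replication, stood at 1.19 ± 0.65 log2.

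In an alternative added after the data had been seen, only cells in G1 by both phase columns were kept, 156 dark zone and 128 light zone cells. It called 1 gene higher and 3 lower of 2976, which were Gcsam (2.67 log2), Cd83 (-2.16), H2-Aa (-0.48) and H2-Ab1 (-0.45). Of the 41 genes 36 were tested there. Hmgb2 stood at 0.92, Cks1b at 4.70, Ccnb2 at 4.60 and Jchain at 0.59 log2, none of them called. The part of the remaining cycling cells in the other calls was not tested beyond this.

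**Figure D3:**
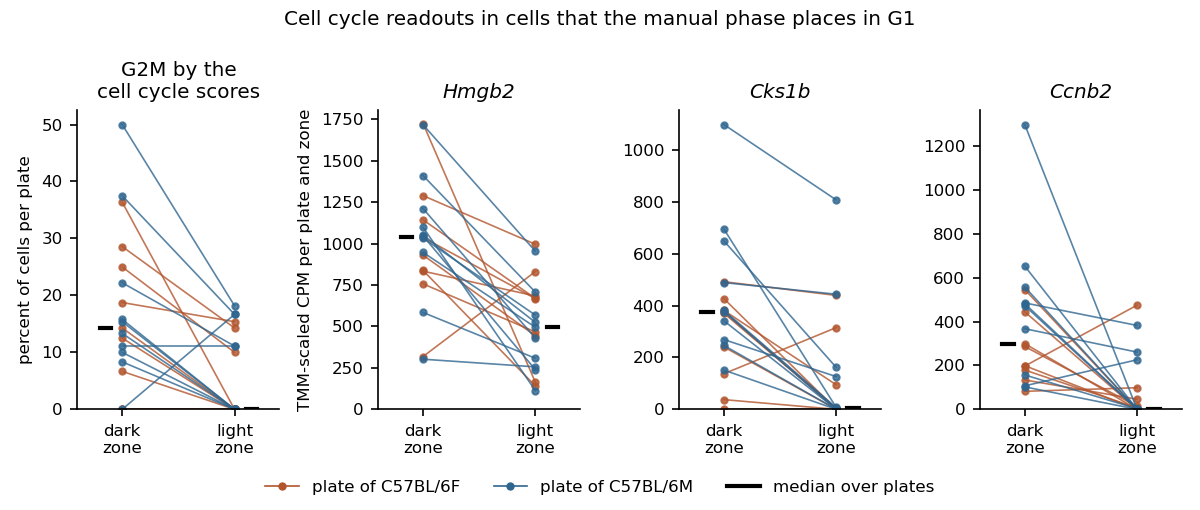
Percent of cells that the scores call G2M (first panel) and TMM-scaled CPM of 3 cell cycle genes (other panels) in cells that the manual phase places in G1; each line joins the zones of 1 of 19 plates and black bars are medians over plates. Most lines slope down from the dark to the light zone, with Hmgb2 higher in the dark zone on 18 plates and the share of G2M cells on 15.

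Surface proteins read at the sort are not transcripts. They are given as inverse hyperbolic sines of fluorescence divided by 10 for CXCR4 and CD86 and by 100 for the others, and each plate's median was compared between the annotated zones in G1. The labels do not say which markers set the gates. Most members came from the gate named for their zone, so these comparisons describe the sort as well as the zones. CXCR4, the receptor that draws cells to the dark zone, ran from 2.44 to 2.93 with a median of 2.69 in dark zone cells and from 1.51 to 2.48 with a median of 2.09 in light zone cells. It was higher in the dark zone on 18 of 19 plates, by 0.615 ± 0.289 (SD, n = 19, two-sided exact sign-flip permutation test, p = 7.63e-06, adjusted p = 7.63e-05 over 10 markers). CD86, the costimulatory ligand of light zone cells, ran from 1.6 to 2.57 with a median of 1.99 in dark zone cells and from 1.92 to 3.1 with a median of 2.84 in light zone cells. It was lower in the dark zone on 17 plates, with a difference of -0.711 ± 0.523 (SD, n = 19, the same exact permutation test, adjusted p = 0.000439). The 2 zones overlapped over plates for both proteins.

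GL7, a glycan epitope of germinal centre B cells, had plate medians from 1.38 to 3.14 with a median of 2.16 in dark zone cells and from 0.51 to 3.33 with a median of 1.35 in light zone cells, and was higher in the dark zone on 15 plates (0.581 ± 0.769, SD, n = 19, exact permutation test, adjusted p = 0.0131). CD138, the product of Sdc1, was low in both zones, with plate medians from 0.0311 to 0.405 with a median of 0.23 in dark zone cells and from -0.128 to 0.298 with a median of 0.0819 in light zone cells, and was higher in the dark zone on 16 plates (0.135 ± 0.160, SD, n = 19, exact permutation test, adjusted p = 0.0064). That call was lost on plate means, with a difference of 0.0522 (exact permutation test, adjusted p = 0.466). B220, CD38, PSGL1, the dump channel of Gr1, CD3 and IgD and the viability dye did not pass the threshold (exact permutation test, adjusted p from 0.0819 to 0.748).

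**Figure D4:**
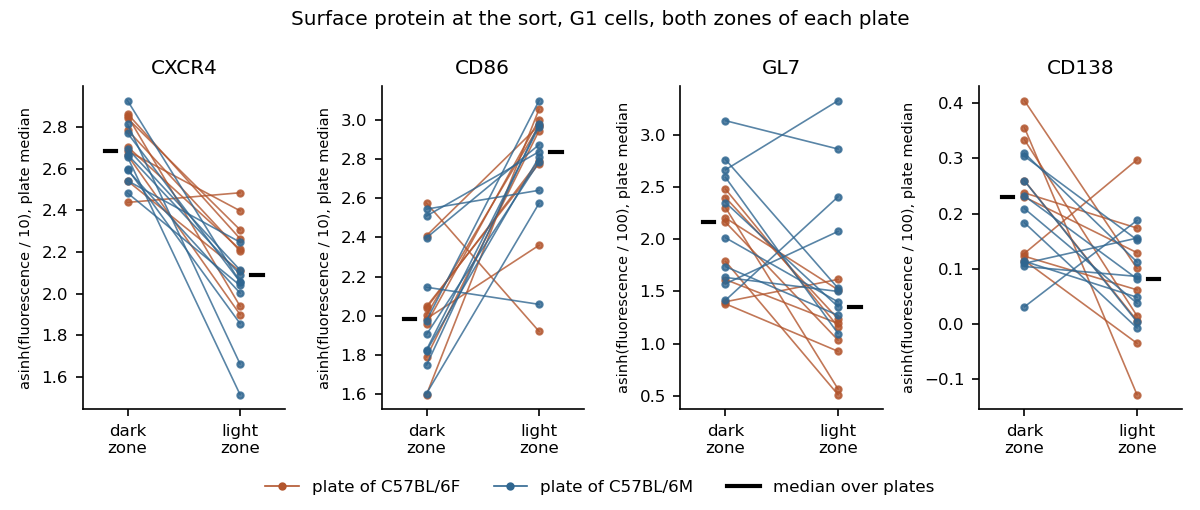
Plate medians of index-sort fluorescence (inverse hyperbolic sine of the signal divided by 10 for CXCR4 and CD86, by 100 for GL7 and CD138) in G1 cells of the annotated zones; each line joins the zones of 1 of 19 plates and black bars are medians over plates. CXCR4 is higher in the dark zone on 18 plates and CD86 lower on 17, while GL7 is higher on 15 and CD138 on 16.

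Grouping the G1 germinal centre cells by sort gate in place of the annotation gave 347 cells, 177 from the dark zone gate and 170 from the light zone gate, light-to-dark cells included. The test called 4 of 3341 genes (0.120%), 1 higher (0.0299%) and 3 lower (0.0898%) in the dark zone gate, and 122 had an unadjusted p under 0.05. Jchain ran from 2723 to 6250.3 CPM with a median of 3933 in the dark zone gate, and from 1666 to 3542 CPM with a median of 2214 in the light zone gate. It rose by 0.67 ± 0.10 log2, on 17 of 19 plates (adjusted p = 0.00118, edgeR). Cd83 had a median of 1837 against 3729 CPM and fell on 15 plates (-1.19 ± 0.20 log2, adjusted p = 0.00289, edgeR). H2-Eb1 fell on 18 plates (-0.43 ± 0.08 log2, adjusted p = 0.00675, edgeR) and Il4i1 on 17 (-3.03 ± 0.62 log2, adjusted p = 0.0257, edgeR). With 1 plate left out, Il4i1 was called between gates in 12 of 19 fits and the other 3 genes in all.

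Both groupings share most of their cells, so their values are set side by side. Gcsam was 0.99 ± 0.41 log2 between gates and 2.59 ± 0.50 between annotated zones. H2-Aa was -0.24 ± 0.07 and -0.44 ± 0.07 log2. Hmgb2 was 0.38 ± 0.22 between gates and 1.09 ± 0.26 between zones, and Ccnb2 1.83 ± 1.09 and 5.59 ± 1.25. None of these 4 passed the test between gates. In the gates, 2 of 14 tested light zone genes fell (median -1.45 log2 beside -0.06 over all genes), 1 of 12 class II genes fell (-0.33), no dark zone gene of 8 was called (0.22), and no G2 and M phase gene of 8 (0.50).

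**Figure D5:**
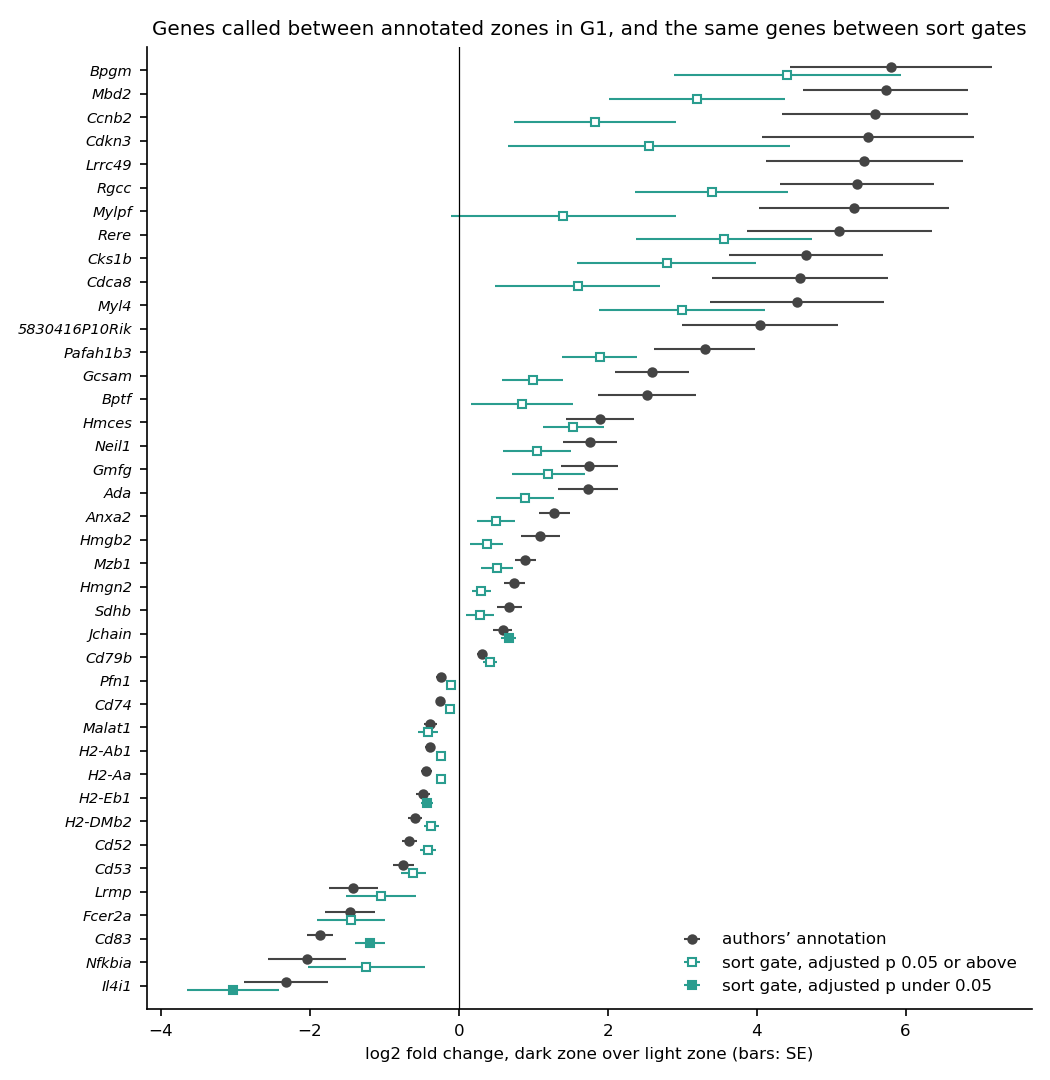
Log2 fold change with standard error (horizontal axis, dark zone over light zone) of 40 of the 41 genes called between annotated zones in G1, with the value of the same gene between sort gates for the 38 of them tested there. Filled squares mark Jchain, H2-Eb1, Cd83 and Il4i1, the 4 genes called between gates.

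The same contrast was made in cells that the manual phase places in S or G2M, on 13 plates with 161 dark zone and 94 light zone cells. Of 3913 genes 10 were called (0.256%), 5 in each direction (0.128% each). Cd83 was -1.85 ± 0.34 log2 there and -1.87 ± 0.17 in G1, Gcsam 1.82 ± 0.31 and 2.59 ± 0.50, H2-Aa -0.43 ± 0.08 and -0.44 ± 0.07, and Jchain 0.68 ± 0.12 and 0.59 ± 0.13. Hmgb2 was 0.22 ± 0.09 log2 in S or G2M and 1.09 ± 0.26 in G1. With all phases together 77 of 5447 genes were called (1.41%), 46 higher (0.845%) and 31 lower (0.569%) in the dark zone.

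A test of the difference between these contrasts, S or G2M minus G1, called 1 of 6333 genes (0.0158%), with 303 at an unadjusted p under 0.05. For Cd83 the difference was 0.13 ± 0.32 log2, for H2-Aa 0.02 ± 0.11 and for Gcsam -0.60 ± 0.57. Hmgb2 had -0.82 ± 0.28 log2 (adjusted p = 0.634, edgeR) and Ccnb2 -2.45 ± 1.10, so the larger dark zone excess of both in G1 was not called. The gene that was called, Nudt7, a peroxisomal hydrolase, was sparse among the G1 members, with 90 counts in 5 dark zone cells and 617 counts in 16 light zone cells.

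The zone difference in G1 was also tested between the sampleIDs. Of 3374 genes none passed (0%, edgeR, 57 at an unadjusted p under 0.05). For Cd83 the difference of C57BL/6M minus C57BL/6F was 0.34 ± 0.34 log2 and for Gcsam 0.94 ± 0.98. Within C57BL/6F alone 0 genes were called higher and 1 lower, and within C57BL/6M alone 1 higher and 6 lower.

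Receptor measures were compared between the zones as well. Heavy chains were assembled in enough cells on 7 plates, where the plate mean of mutations per heavy chain ran from 2.6 to 4.33 with a median of 4.00 in dark zone cells and from 2.2 to 4.6 with a median of 3.17 in light zone cells. Light chain mutations were compared on 17 plates, with plate means from 2.00 to 3.73 with a median of 2.83 in dark zone cells and from 0.800 to 4.6 with a median of 2.18 in light zone cells. The difference was 0.489 ± 1.23 mutations (SD, n = 17, two-sided exact sign-flip permutation test, adjusted p = 0.416 over 9 measures). Heavy chain replacement mutations had plate medians of 3.38 and 2.71 (difference 0.796 ± 0.911, SD, n = 7, exact permutation p = 0.0625, adjusted p = 0.416). On 7 plates that test cannot give a p below 0.0156, so a heavy chain measure alone could not pass after adjustment over 9. None of the 9 measures passed, among them the share of cells led by IgM (difference -8.03 ± 24.4 percentage points, SD, n = 18) and by IgG1 (-4.09 ± 24.3 percentage points, SD, n = 18).

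Of the members, 96 dark zone and 85 light zone cells carried a heavy chain clone number, in 152 clones. Of the 23 clones with 2 or more cells, 11 had cells in both zones, 14 cells in each, and 2 of the 11 were seen in both sampleIDs.

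Markers of other cell types were read beside these results. B cell genes were detected in most members, with Cd79a in 92.3% of dark zone and 94.5% of light zone cells and Ms4a1 in 86.0% and 87.8%. Of 12 T cell markers 8 were at 0, Cd3d among them, and the summed T cell list ran from 0 to 1156 CPM in dark zone and from 81.4 to 1406 CPM in light zone pools. Its tested member, the kinase gene Lck, stood at -1.34 ± 0.53 log2. Of 9 myeloid markers 5 were at 0, with Csf1r and C1qa among them, and sums ran from 0 to 224 CPM in dark zone and from 0 to 372 CPM in light zone pools. Of 10 follicular dendritic, stromal and red cell markers 6 were at 0, with sums from 25.1 to 626 CPM and from 0 to 1084 CPM. The naive and memory B list, which holds Fcer2a, was lower in the dark zone on all 19 plates (median 748 against 1379 CPM), and the plasma cell list higher on 17. Their part in the gene differences was not tested.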

How the data were processed

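Single cells were profiled on 20 plates by FB5P-seq. The deposited matrix holds counts of unique molecular identifiers for 16047 genes in 1367 cells, and the submitters' processing notes name STAR 2.5.3a, HTSeq 0.9.1 and mm10. How cells were filtered, scored and annotated is not given in the sources used here. The authors' table of cells gives the phase, dark zone and light zone score of each cell, index-sort fluorescence, receptor calls and the spike-in share as a fraction. Plate names there do not match the sample titles, so a plate was placed in a sampleID by the letter in its Sexe column.

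Counts of G1 cells were summed per plate and zone, with 5 cells or more per pool. Both pools of a pair came from the same plate, so the plate was a block. R 4.3.3 with edgeR 4.0.16 was used (filterByExpr, TMM, estimateDisp, glmQLFit, glmQLFTest, Benjamini-Hochberg), and scripts were tested on simulated data. Plate values of fluorescence (medians, inverse hyperbolic sine), receptors and quality were compared by exact sign-flip permutation. The smallest p that 19 plates allow is 3.81e-06, and 7 plates allow 0.0156. Immunoglobulin isotypes were called from 3 counts or more. No doublet caller was run on these plate-sorted cells. Plate totals ran from 5979 to 11908095 counts. Intervals of shares are exact Clopper-Pearson at 95%.

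Members and gene lists were chosen with earlier results of these data known. Named genes were a fixed panel, the 10 called genes of lowest p in each direction (no V, D or J segments, Gm or Rik names), up to 4 of lowest p per list, and 6 of lowest p in each interaction. Lrmp, Pfn1, Ada, Gmfg, Hmces, Bptf, Cdca8 and Cdkn3 are named beside these, chosen after their values were seen. A few items are not reported here. Alternatives were RLE scaling, no filter, pools of 3 or 8 cells, thinning to 10000 counts, no immunoglobulin genes, either sampleID alone, no block, glmQLFit without estimateDisp, annotation and gate in agreement, DESeq2 1.42.0, and each plate left out.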

Additional observations from a re-analysis of the deposited data

Results flagged for a closer look

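Within each sampleID, single plates were looked at for a value that stood apart from the others by Dixon's criterion, on the log2 ratio of CPM + 1 (dark zone over light zone) for genes and on the difference for other measures. Of 95 groups of plates 12 had one, where chance gives about 1 in 20.

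Plate 4 of C57BL/6F stood apart for Fcer2a at -9.01, with 0 CPM in its dark zone and 514 in its light zone pool, and for Cd86 at -8.46, with 0 against 351 CPM. On the same plate the share of cells called G2M by the scores was 36.4 percentage points higher in the dark zone. Plate 14 of C57BL/6M stood apart for Fcer2a at -5.47 (25.1 against 1157 CPM), for Cd86 at 7.71 (209 against 0 CPM) and for the cyclin gene Ccnd3 at -2.62 (0 against 5.16 CPM). There the share of cells given another phase by the scores was -30 percentage points, 20% in the dark zone and 50% in the light zone.

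Other genes that were at or near 0 in 1 pool were Cd69 on plate 20 of C57BL/6M (7.48, 177 against 0 CPM), Ciita on plate 2 of C57BL/6F (-6.36, 0 against 81.4 CPM), Pcna on plate 3 of C57BL/6F (-5.01, 5.37 against 205 CPM) and S1pr2 on plate 16 of C57BL/6M (8.59, 384 against 0 CPM). On that last plate 40% of dark zone heavy chains carried no mutation against 0% in the light zone, a difference of 40 percentage points among 4 plates.

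Nudt7 was the 1 gene whose zone difference differed between phases, by 11.8 log2 (S or G2M minus G1, edgeR adjusted p = 0.0279). Its call was absent in each sampleID alone.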

How the results depend on the processing

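For the annotated zones in G1, the counts called higher and lower (27 and 14 as reported) were 0 and 1 on C57BL/6F plates alone, 1 and 6 on C57BL/6M plates alone, 1 and 3 with G1 in both phase columns, 0 and 4 with pools of 8 cells or more, 4 and 6 with annotation and gate in agreement, 52 and 26 with glmQLFit without estimateDisp, and 192 and 62 with DESeq2, which called all 41. Each sampleID alone has fewer plates and the stricter selections fewer cells; the cause of the larger counts was not tested. With no replicate block the counts were 12 and 6 in G1, 1 and 1 between gates, 4 and 2 in S or G2M, and 21 and 21 over all phases. The G1 counts were again 27 and 14 with no filter on low counts, pools of 3 cells and no immunoglobulin genes, but with no filter 34 of the 41 genes were shared. Higher calls were 65.9% of all calls as reported, 55% with RLE and 75.6% with DESeq2.

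Between gates (1 and 3), counts were 5 and 11 with no filter, 2 and 4 without immunoglobulin genes, 0 and 0 on C57BL/6F, 0 and 1 on C57BL/6M and 1 and 1 with G1 in both columns. In S or G2M (5 and 5), they were 4 and 10 with RLE, 25 and 7 with no filter, 18 and 6 with pools of 3 cells, 0 and 0 on C57BL/6F and 2 and 3 on C57BL/6M. Over all phases (46 and 31), they were 41 and 42 with RLE, 102 and 31 with no filter, 4 and 10 on C57BL/6F and 17 and 14 on C57BL/6M. For the difference between phases (1 and 0), they were 2 and 3 with no filter, 2 and 0 with pools of 3 cells, and 0 and 0 after thinning or in either sampleID. For the difference between sampleIDs (0 and 0), 1 gene was called with no filter. With 1 plate left out the ranges were 15 to 28 and 11 to 14 in G1, 1 to 2 and 2 to 4 between gates, 4 to 7 and 5 to 6 in S or G2M, 36 to 51 and 25 to 33 over all phases, and 0 between sampleIDs. This was not run for the difference between phases.

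CD138 missed the threshold on plate means (0.0522), C57BL/6F (0.174) and C57BL/6M (0.0997), GL7 on C57BL/6M (0.306) and with G1 in both columns (0.517), and the share called G2M on C57BL/6F (11.4) and C57BL/6M (11). Only values that were not called changed sign. On C57BL/6F these were Irf8 (0.11), IGHV1-72 (-2.5), IgG1 (7.78), mitochondrial (0.154) and immunoglobulin percent (-0.483) and S score (-0.0234). On C57BL/6M they were CD38 (0.0368), heavy chain mutations (-0.477), unmutated heavy chains (8.13) and counts per cell (-1392). On plate means they were CD38 (0.0481), spike-in percent (0.979), immunoglobulin percent (-0.116) and S score (-0.00834). With G1 in both columns they were Rgs13 (0.0637), CD38 (0.0371), mitochondrial (0.0154) and immunoglobulin percent (-0.0555) and S score (-0.0158). Others were Irf8 with pools of 8 cells (0.15), Pcna with gate in agreement (-0.0416) and S1pr2 with no replicate block (0.26) and without estimateDisp (0.18). With 1 plate left out Irf8 ran from -0.20 to 0.00665, S1pr2 from -0.43 to 0.0193, CD38 from -0.0381 to 9.60e-05, counts per cell from -805 to 2864, immunoglobulin percent from -0.0699 to 0.0902 and S score from -0.00408 to 0.0149.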
